A study of Mus musculus with 64 samples.

Results

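The growth hormone and STAT5 axis was followed in mouse liver through 10 genes chosen by name: the receptors Ghr and Prlr, the transcription factors Stat5a and Stat5b, the growth factor gene Igf1 and its binding partner Igfals, the feedback inhibitors Socs2 and Cish, and the transcriptional repressors Bcl6 and Cux2. All 10 were among the 53008 gene names of the count table, and all 10 were among the 17318 that passed the filter on low counts. Liver RNA was sequenced from HuMgat2 mice, a humanized line that expresses human MOGAT2, and from wild-type (WT) mice with the mouse gene Mogat2. The labels used here do not give the promoter or the allele behind the human gene. MOGAT2 makes diacylglycerol from monoacylglycerol. Mice of both genotypes ate a high-fat diet (HFD) or chow, and livers were taken when 16 weeks of feeding were complete. The groups were HuMgat2 on HFD (libraries 9 to 12), HuMgat2 on chow (libraries 13 to 16), WT on HFD (libraries 1 to 4) and WT on chow (libraries 5 to 8), with 4 libraries each. The labels used here give no sex, age, strain, hour of collection or feeding state.

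Growth hormone binds its receptor on hepatocytes, the receptor activates the kinase JAK2, and JAK2 phosphorylates STAT5a and STAT5b, which enter the nucleus and bind DNA. In liver, STAT5b is the main carrier of the signal, and its known targets include Igf1, Igfals, Socs2 and Cish. The SOCS2 and CIS proteins damp the receptor in turn, and the repressor BCL6 occupies many of the same DNA sites as STAT5 and is itself held down by STAT5 in mouse liver. In male mice growth hormone arrives in pulses, and in females it is more continuous, which gives many liver genes a bias to one sex. Cux2 and Prlr are known in mice for higher liver levels in females.

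Total counts ranged from 12.42 to 25.81 M per library. Mogat2 had 0 to 2 counts in HuMgat2 HFD, 0 to 1 in HuMgat2 chow, 2 to 12 in WT HFD and 0 to 2 in WT chow libraries, too few to check the genotype labels, and human MOGAT2 was not measured. WT HFD library 4 stood apart. It held the 12.42 M counts, albumin (Alb) took 0.85% of them against 3.26% to 6.02% elsewhere, and its median Spearman rho to the other WT HFD libraries was 0.954, where libraries elsewhere had 0.978 to 0.990. Its summed macrophage markers reached 760.7 CPM (counts scaled to a common library size), against at most 232.2 CPM in WT chow. Results that rest on this library are given with and without it. The Y-linked gene Ddx3y stood at 64.4 to 95.4 CPM in all 16 libraries, and the X-inactivation transcript Xist at no more than 1.51 CPM.

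The letters to which STAT5 is known to bind can be read near the start sites of these genes. RefSeq start-site windows of 300 bases on GRCm38.p6, 250 before and 50 after each start, were at hand for 9 of the 10 genes, with none for Socs2. The STAT5 core motif TTCNNNGAA, which reads the same on both strands, was searched in each window. It was present in at least 1 window of Cish, Bcl6, Igfals and Prlr, 4 of the 9 genes, and 9.55% of all 27025 gene symbols had at least 1 window that held it. Counted by window, 6 of the 18 windows of these genes held it, against 8.3% of all windows. The genes include known STAT5 targets, so an excess is not independent evidence. The Cish window (chr9:107296409-107296708, plus strand) held 2 matches, as did 0.457% of all 32851 windows or more. Bcl6 had 1 match in the window chr16:23988803-23989102 and 3 in the window chr16:23981234-23981533, both on the minus strand, and 11 windows in all held at least 3. The 3 windows of Cish and Bcl6 are shown because these genes had the widest spread between libraries among those above 1 CPM on average, with matches in capitals.
Cish: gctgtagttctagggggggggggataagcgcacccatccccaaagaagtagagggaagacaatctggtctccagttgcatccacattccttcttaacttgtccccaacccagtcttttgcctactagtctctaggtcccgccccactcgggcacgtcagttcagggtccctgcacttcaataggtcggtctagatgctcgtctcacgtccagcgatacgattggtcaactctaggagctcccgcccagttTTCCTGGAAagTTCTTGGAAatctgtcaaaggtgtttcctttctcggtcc
Bcl6, first start: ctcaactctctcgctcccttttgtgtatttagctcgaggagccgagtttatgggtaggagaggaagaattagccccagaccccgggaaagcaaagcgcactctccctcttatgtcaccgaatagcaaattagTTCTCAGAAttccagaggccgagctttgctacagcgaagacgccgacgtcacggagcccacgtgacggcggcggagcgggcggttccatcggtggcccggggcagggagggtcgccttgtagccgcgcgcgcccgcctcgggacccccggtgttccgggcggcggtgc
Bcl6, second start: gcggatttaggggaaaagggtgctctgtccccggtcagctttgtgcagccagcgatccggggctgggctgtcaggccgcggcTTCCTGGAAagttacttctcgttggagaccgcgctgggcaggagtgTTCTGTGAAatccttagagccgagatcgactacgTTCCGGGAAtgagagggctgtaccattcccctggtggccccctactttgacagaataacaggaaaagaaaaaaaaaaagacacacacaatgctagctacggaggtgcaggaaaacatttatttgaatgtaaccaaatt
The first Cish match begins at the annotated start and the second at position 262 of the window, and those of the second Bcl6 window at positions 83, 129 and 163, counted from 1 at the 5′ end. A match is a run of letters only, and binding was not measured. No match to this motif was found in the windows of Ghr, Igf1, Stat5a, Stat5b and Cux2.

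Compared per kilobase of exon (FPKM), Ghr at 76.5 and Igf1 at 74.1 FPKM were the most abundant of the genes on average over 16 libraries. Their order changed between groups, and within each group except WT chow the difference in mean lay within 2 SD of the more variable gene. Igfals followed at 16.6 FPKM, then Stat5b at 10.4, Prlr at 9.31 and Bcl6 at 8.18 FPKM. Stat5a at 2.50, Socs2 at 1.48 and Cish at 1.31 FPKM were lower, and Cux2 at 0.081 FPKM was close to the limit of detection, with 5 to 60 counts per library. Stat5a stood at 34.1% ± 2.57 of the Stat5b level in HuMgat2 HFD livers and at 21.1% ± 2.60 in HuMgat2 chow, 23.9% ± 0.78 in WT HFD and 19.5% ± 1.81 in WT chow (SD, n = 4 each).

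**Figure D1:**
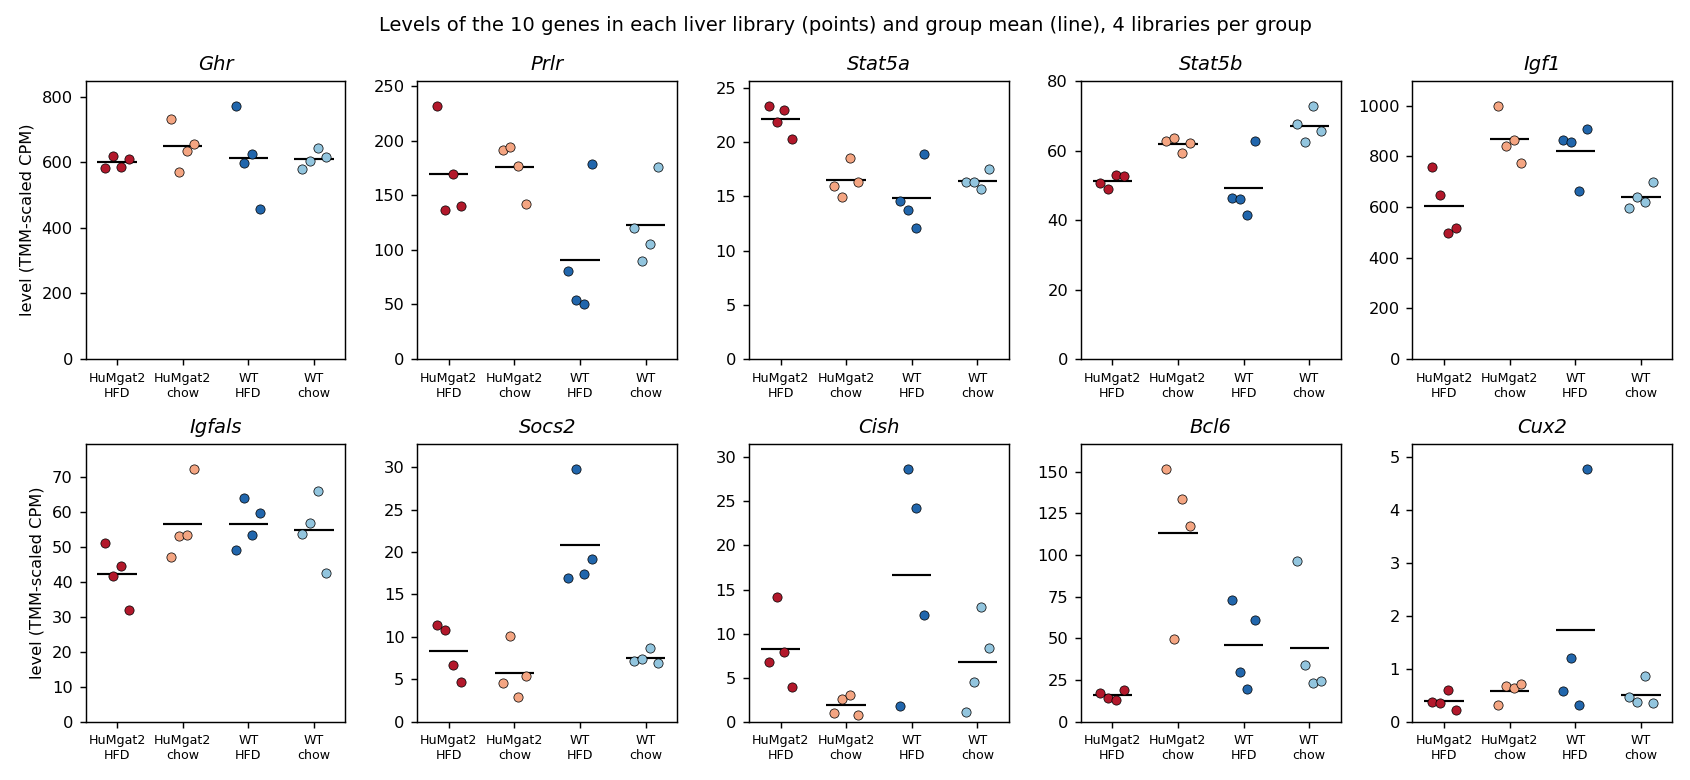
Level of each of the 10 genes in TMM-scaled CPM (vertical axis from 0) by group, with 1 point per library and a line at the group mean. Bcl6 in HuMgat2 HFD libraries lies between 13.0 and 18.9 CPM, under every library of the other groups, and WT HFD library 4 is the single high point of Prlr and Cux2 in its group.

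Rises and falls are named only where its adjusted p was below 0.05 in the edgeR quasi-likelihood test over all genes tested. In HuMgat2 livers, 3 of the 10 genes changed with HFD: Stat5a rose, and Igf1 and Bcl6 fell. Among all genes tested, 14.0% changed in that comparison. In WT livers, 2 changed with HFD, Socs2 higher and Stat5b lower, against 15.1% of all genes. Between genotypes on HFD, 4 differed, with Stat5a higher and Socs2, Bcl6 and Cux2 lower in HuMgat2, against 14.8% of all genes. Between genotypes on chow, the edgeR test called 0 of the 10, as did DESeq2 and limma voom, with 3 at an unadjusted p below 0.05, and 0.508% of all genes were called. The diet effect itself differed between genotypes for 3 genes, Stat5a, Igf1 and Bcl6, against 4.87% of all genes. With 10 genes, each of these counts is 0 to 4, so the shares can only be set beside the background loosely. The 10 genes, and the gene lists below, were chosen with earlier results of these data known. A count above the background is thus not independent evidence.

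The libraries of the groups compared did not overlap for 5 genes with HFD in HuMgat2 (Cish, Stat5a higher, Igf1, Stat5b, Bcl6 lower), and 21.0% of all genes had no overlap there. Socs2 was the only such gene with HFD in WT, where 18.2% of all genes had none. Between genotypes on HFD there were 3 (Stat5a, Socs2, Bcl6), with 21.2% in all genes, and on chow 1 (Igf1), with 6.62%. The median log2 difference of the 10 genes was -0.19 with HFD in HuMgat2, 0.04 with HFD in WT, -0.43 between genotypes on HFD and 0.07 on chow. The medians over all genes tested were -0.01, 0.03, -0.04 and 0.00 in the same order of comparisons.

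**Figure D2:**
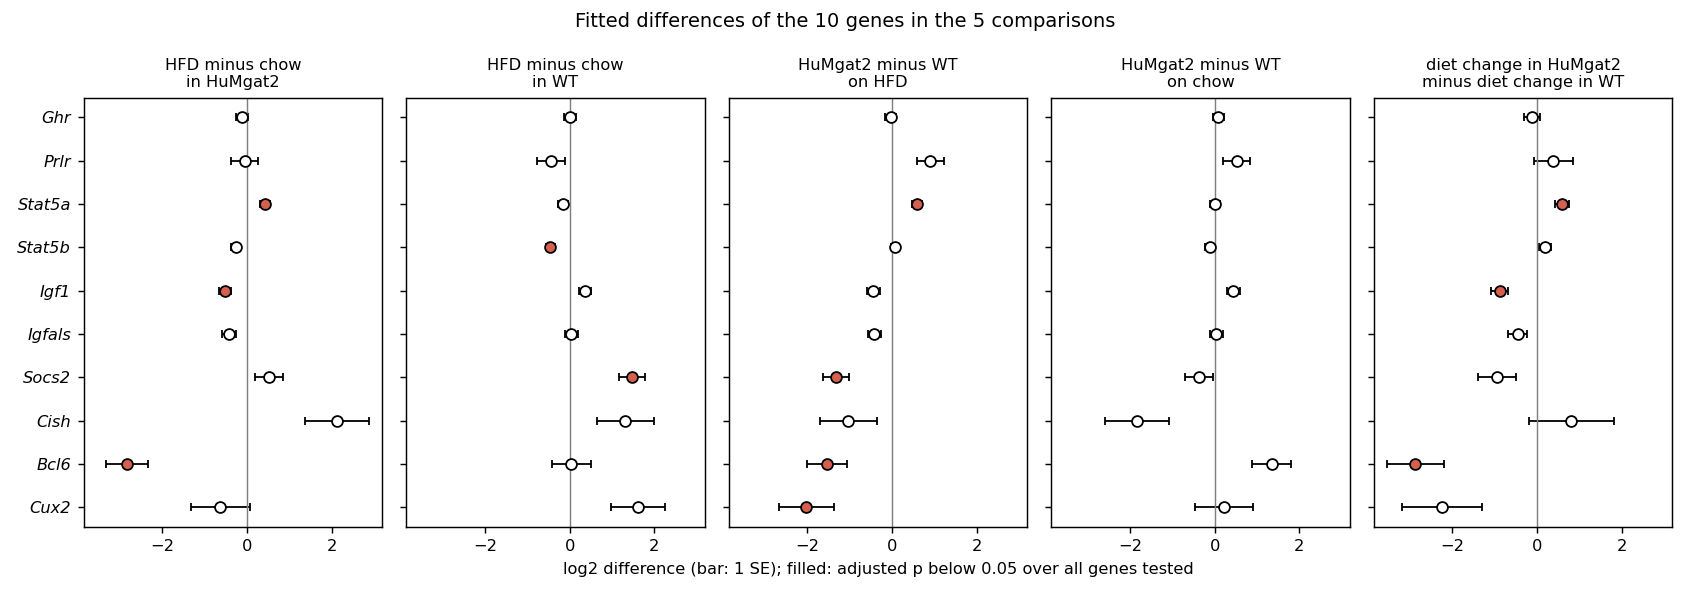
Fitted log2 difference of each gene (horizontal axis, bars 1 SE) in the 5 comparisons, filled where the adjusted p over all genes tested was below 0.05. Bcl6 shows the largest difference with HFD in HuMgat2 (log2 -2.83), and no point is filled between genotypes on chow.

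Ghr (ENSMUSG00000055737, GRCm39 chromosome 15, 3347242 to 3612974), the receptor itself, was the steadiest of the genes. It had 582.3, 619.5, 586.5 and 609.2 CPM in HuMgat2 HFD, 733.4, 570.4, 635.7 and 655.8 CPM in HuMgat2 chow, 770.6, 598.8, 625.6 and 457.9 CPM in WT HFD and 579.9, 604.5, 642.4 and 615.2 CPM in WT chow libraries. All groups overlapped, and WT HFD held both the highest and the lowest library. No comparison was called (adjusted p 0.636 with HFD in HuMgat2, 0.985 with HFD in WT, 0.897 between genotypes on HFD and 0.872 on chow). The 95% intervals of the log2 difference ran from -0.40 to 0.17 with HFD in HuMgat2 and from -0.32 to 0.25 between genotypes on HFD, so changes of this size or less were not resolved.

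Prlr (ENSMUSG00000005268, chromosome 15, 10177324 to 10349266), the prolactin receptor and the nearest relative of Ghr in the set, lies 6.56 Mb from it. It had 231.6, 136.4, 169.2 and 139.9 CPM in HuMgat2 HFD, 192.0, 194.3, 176.9 and 142.2 CPM in HuMgat2 chow, 80.5, 53.7, 50.0 and 178.5 CPM in WT HFD and 120.1, 89.9, 105.1 and 176.3 CPM in WT chow libraries. All WT HFD libraries but library 4 were below every library of the other groups. With all libraries nothing was called (log2 0.91 ± 0.33 SE and adjusted p = 0.0722 between genotypes on HFD, log2 -0.44 ± 0.33 SE and adjusted p = 0.398 with HFD in WT). Without WT HFD library 4, Prlr in HuMgat2 HFD livers exceeded WT HFD livers 2.76-fold (log2 1.46, adjusted p = 0.000502), and it fell with HFD in WT, to 61.4 ± 16.6 CPM in 3 WT HFD libraries against 123 ± 37.7 CPM in 4 WT chow libraries (SD, adjusted p = 0.00752). With all libraries, the genotype difference on HFD also passed by DESeq2 (adjusted p = 0.027), without the filter (0.0266) and by limma voom with quality weights (0.000125). The fall with HFD in WT passed by limma voom as well (log2 -0.96, adjusted p = 0.00461). The difference of the diet effect between genotypes was not called with or without that library (adjusted p = 0.711 with it, 0.0824 without).

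Of Stat5a and Stat5b, the neighbouring genes of the signal carriers on chromosome 11, Stat5a rose with HFD in HuMgat2 livers and Stat5b fell with HFD in WT livers. Stat5a (ENSMUSG00000004043, 100750177 to 100775995) had 23.3, 21.9, 23.0 and 20.3 CPM in HuMgat2 HFD, 16.0, 15.0, 18.6 and 16.4 CPM in HuMgat2 chow, 14.6, 13.8, 12.1 and 18.9 CPM in WT HFD and 16.3, 16.3, 15.7 and 17.5 CPM in WT chow libraries. Every HuMgat2 HFD library was above every other library. Stat5a rose 1.34-fold with HFD in HuMgat2 (log2 0.43 ± 0.11 SE, adjusted p = 0.0191) and on HFD HuMgat2 livers exceeded WT livers 1.498-fold (log2 0.58 ± 0.11 SE, adjusted p = 0.00313). On chow its genotype difference was 0.00 ± 0.12 SE (log2, adjusted p = 0.999). With HFD in WT Stat5a was not called (log2 -0.16, adjusted p = 0.398), but limma voom called it lower (log2 -0.31, adjusted p = 0.0221). The diet call in HuMgat2 ended without HuMgat2 HFD library 11 (adjusted p = 0.0519) or HuMgat2 chow library 14 (adjusted p = 0.0535), and the call between genotypes on HFD held in every setting. The difference of the diet effect (log2 0.58 ± 0.16 SE, adjusted p = 0.049) was lost on leaving out any of 14 of the 16 libraries (adjusted p 0.0528 to 0.0938), all but HuMgat2 chow library 15 and WT HFD library 4, and without the filter (adjusted p = 0.0509). Stat5a shares 72 of its 6994 exon bases with Stat3 on the opposite strand, and the counting command names no strand.

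Stat5b (ENSMUSG00000020919, 100671557 to 100741550), with 8626 bases between it and Stat5a, had 50.8, 49.0, 53.2 and 52.6 CPM in HuMgat2 HFD, 62.7, 63.5, 59.5 and 62.2 CPM in HuMgat2 chow, 46.3, 46.1, 41.5 and 62.8 CPM in WT HFD and 67.7, 62.5, 72.8 and 65.7 CPM in WT chow libraries. Both HFD groups were below the chow groups apart from WT HFD library 4. Stat5b fell 1.37-fold with HFD in WT (log2 -0.45 ± 0.10 SE, adjusted p = 0.00776), a call that held in every setting, at log2 -0.59 without library 4. In HuMgat2 the diet difference was log2 -0.27 ± 0.10 SE with adjusted p = 0.0932, and all 4 HFD libraries lay under all 4 chow libraries. It became a call without WT HFD library 4 (adjusted p = 0.0109), by DESeq2 (0.0496), by limma voom (0.0269) and with the HuMgat2 groups fitted alone (0.02). The diet effects of the genotypes were not called different (log2 0.18 ± 0.15 SE, adjusted p = 0.543). Between genotypes on HFD Stat5b was not called (log2 0.07, adjusted p = 0.7), but passed by limma voom (log2 0.21, adjusted p = 0.0493).

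In bulk liver, a smaller number of cells of a type and less RNA per cell cannot be told apart. The 8 hepatocyte markers summed to 66620 to 79560 CPM in HuMgat2 HFD against 72620 to 97130 CPM in HuMgat2 chow, and to 44640 to 72180 CPM in WT HFD against 81190 to 96850 CPM in WT chow. Alb was the largest part of these sums, at 29700 ± 14350 CPM in WT HFD and 52780 ± 5790 CPM in WT chow (SD). The low end of WT HFD was library 4, with Alb at 8390 CPM. The WT HFD medians were 70550 CPM for the sum and 35380 CPM for Alb. With HFD in WT 0 of the 8 markers were called, and in HuMgat2 2 were lower, beside 15.1% and 14.0% of all genes. The 8 macrophage markers summed to 187.8 to 228.9 CPM in HuMgat2 HFD, 144.6 to 194.3 CPM in HuMgat2 chow, 179 to 760.7 CPM in WT HFD and 126.4 to 232.2 CPM in WT chow. The 6 stellate cell markers summed to 366.6 to 433.7 CPM in HuMgat2 HFD, 194 to 309 CPM in HuMgat2 chow, 271.1 to 353.9 CPM in WT HFD and 214.3 to 285.7 CPM in WT chow. The 6 endothelial markers summed to 281.3 to 285.7 CPM in HuMgat2 HFD, 226.3 to 257.5 CPM in HuMgat2 chow, 236 to 264 CPM in WT HFD and 232.7 to 275 CPM in WT chow. The stellate and the endothelial sums were thus both highest in every library of HuMgat2 HFD, the group where Stat5a was highest. With HFD in HuMgat2 5 of 6 stellate, 1 of 6 endothelial and 0 of 8 macrophage markers were higher, beside 14.0% of all genes. The stellate count was 3 without HuMgat2 HFD library 12 or HuMgat2 chow library 15. With HFD in WT 0 stellate, 1 endothelial and 4 macrophage markers were higher, beside 15.1%. That macrophage count ran from 1 to 7 on leaving out each library. Between genotypes on HFD 3 stellate markers were higher in HuMgat2, beside 14.8% of all genes. The 7 lymphocyte markers summed to 3.09 to 3.76 CPM in HuMgat2 HFD, 3.34 to 5.23 CPM in HuMgat2 chow, 4.58 to 17 CPM in WT HFD and 4.39 to 6.30 CPM in WT chow. No marker of these lists was at 0 in every library of a group. The 4 adipocyte markers summed to 3.05 to 6.97 CPM in HuMgat2 HFD, 0 to 0.375 CPM in HuMgat2 chow, 0.159 to 129.9 CPM in WT HFD and 0.136 to 0.416 CPM in WT chow. Nearly all of that was Cfd, the other three (Adipoq, Plin1 and Lep) having 0 to 2 counts per library and 0 in every WT HFD library. The part of these markers in the changes of the 10 genes was not tested.

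Igf1 (ENSMUSG00000020053, chromosome 10, 87694127 to 87772904), the growth factor that liver releases under growth hormone, fell with HFD in HuMgat2 and was higher with HFD in WT without being called. It had 759.4, 646.2, 496.5 and 519.0 CPM in HuMgat2 HFD, 997.7, 839.5, 865.1 and 772.5 CPM in HuMgat2 chow, 863.1, 855.4, 665.2 and 908.6 CPM in WT HFD and 596.5, 640.1, 618.5 and 699.5 CPM in WT chow libraries. The HuMgat2 diets did not overlap, and 3 of 4 WT HFD libraries were above all WT chow libraries. The fall in HuMgat2 was 1.44-fold (log2 -0.52 ± 0.15 SE, adjusted p = 0.0264), and the difference in WT was log2 0.37 ± 0.15 SE (adjusted p = 0.108). The diet effects differed between genotypes (log2 -0.89 ± 0.21 SE, adjusted p = 0.022). Without HuMgat2 HFD library 10, 11 or 12 or HuMgat2 chow library 13 or 15 the fall in HuMgat2 was no longer called (adjusted p = 0.0503, 0.0976, 0.0919, 0.0807 and 0.0547 in that order), nor without the filter (adjusted p = 0.052). The difference of diet effects was lost without HuMgat2 HFD library 11 (adjusted p = 0.0525) or WT chow library 5 (adjusted p = 0.0548). Between genotypes, Igf1 was not called on HFD (log2 -0.44, adjusted p = 0.0541) or on chow (log2 0.44, adjusted p = 0.255), where all HuMgat2 libraries lay above all WT libraries. The difference on HFD passed without HuMgat2 HFD library 9 (adjusted p = 0.0237) or WT HFD library 3 (0.0322) and by DESeq2 (0.0215).

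Igfals (ENSMUSG00000046070, chromosome 17, 25084971 to 25100984) encodes the acid-labile subunit that keeps IGF1 in the circulation. Its levels were 51.0, 41.6, 44.6 and 31.8 CPM in HuMgat2 HFD, 47.2, 53.1, 53.4 and 72.3 CPM in HuMgat2 chow, 49.2, 63.9, 53.4 and 59.7 CPM in WT HFD and 53.7, 57.0, 66.1 and 42.6 CPM in WT chow libraries. The groups overlapped in every comparison. HuMgat2 HFD was the lowest group, at log2 -0.42 ± 0.16 SE against both HuMgat2 chow (adjusted p = 0.0938) and WT HFD (adjusted p = 0.0856), and neither passed the threshold. By limma voom the difference from WT HFD passed (log2 -0.40, adjusted p = 0.041).

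Socs2 (ENSMUSG00000020027, chromosome 10, 95223529 to 95252719), an inhibitor of the growth hormone receptor that STAT5 induces, rose with HFD in WT livers, and on HFD it was lower in HuMgat2 livers. It had 11.4, 10.8, 6.63 and 4.71 CPM in HuMgat2 HFD, 4.58, 10.1, 2.95 and 5.38 CPM in HuMgat2 chow, 17.0, 29.8, 17.4 and 19.2 CPM in WT HFD and 7.13, 7.40, 8.71 and 6.87 CPM in WT chow libraries. All 4 WT HFD libraries were above the other 12. The rise in WT was 2.77-fold (log2 1.47 ± 0.31 SE, adjusted p = 0.00549), and on HFD the level was 2.49-fold lower in HuMgat2 (log2 -1.32 ± 0.31 SE, adjusted p = 0.01). Both calls held in every setting, with values of 1.51 and -1.35 without WT HFD library 4. In HuMgat2 the diet difference was log2 0.52 ± 0.32 SE (adjusted p = 0.319), and without HuMgat2 chow library 14 it was 0.95 (adjusted p = 0.0433). The difference of the diet effects was not called (log2 -0.95 ± 0.45 SE, adjusted p = 0.271). Relative to Ghr per kilobase, Socs2 stood at 1.57% ± 0.61 in HuMgat2 HFD, 1.03% ± 0.66 in HuMgat2 chow, 3.98% ± 1.43 in WT HFD and 1.38% ± 0.11 in WT chow (SD, n = 4 each).

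Cish (ENSMUSG00000032578, chromosome 9, 107173225 to 107179983), the other early STAT5 target and inhibitor, spanned a 36-fold range over the 16 libraries, the widest of the 10 genes. It had 6.76, 14.2, 7.95 and 3.99 CPM in HuMgat2 HFD, 1.03, 2.54, 3.06 and 0.80 CPM in HuMgat2 chow, 1.76, 28.7, 24.3 and 12.1 CPM in WT HFD and 1.09, 4.49, 13.0 and 8.35 CPM in WT chow libraries. HuMgat2 HFD lay above HuMgat2 chow in all 4 libraries, while the WT groups overlapped over a wide range. No comparison was called: the difference with HFD was log2 2.12 ± 0.75 SE in HuMgat2 (adjusted p = 0.0723) and log2 1.32 ± 0.67 SE in WT (adjusted p = 0.204). The HuMgat2 difference passed the threshold without WT HFD library 1 (adjusted p = 0.0288) or WT chow library 5 (adjusted p = 0.0491), by DESeq2 (adjusted p = 0.0453), without the filter (adjusted p = 0.0288) and when the HuMgat2 groups were fitted alone (adjusted p = 0.00692).

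Bcl6 (ENSMUSG00000022508, chromosome 16, 23783802 to 23807602), the repressor that shares DNA sites with STAT5, had the largest change of the 10 genes. It had 17.4, 14.1, 13.0 and 18.9 CPM in HuMgat2 HFD, 151.5, 49.7, 133.7 and 117.1 CPM in HuMgat2 chow, 73.2, 29.8, 19.4 and 60.9 CPM in WT HFD and 96.2, 33.9, 23.4 and 24.2 CPM in WT chow libraries. HuMgat2 HFD was low and tight, HuMgat2 chow had 3 of 4 libraries above all other libraries, and the WT groups overlapped. Bcl6 fell 7.13-fold with HFD in HuMgat2 (log2 -2.83 ± 0.49 SE, adjusted p = 0.00108), and its diet effect differed from that in WT (log2 -2.87 ± 0.66 SE, adjusted p = 0.0193). Both calls held in every setting tried (log2 -3.08 to -2.66 and -3.58 to -2.24). In WT the diet difference was log2 0.04 ± 0.46 SE (adjusted p = 0.971), with a 95% interval from -0.93 to 1.01. On HFD Bcl6 in HuMgat2 livers lay 2.89-fold under that of WT livers (log2 -1.53 ± 0.48 SE, adjusted p = 0.0398), a call that ended without any of the HuMgat2 HFD libraries (adjusted p 0.0676 to 0.098) or WT HFD library 1 (adjusted p = 0.104) or 4 (adjusted p = 0.0745), and by limma voom (log2 -0.93, adjusted p = 0.147). On chow the genotype difference was log2 1.35 ± 0.46 SE (adjusted p = 0.275), at 2.06 without WT chow library 5, which lay far above its group.

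Within groups, Bcl6 and Cish tended to run in opposite directions, a pairing looked at after their values were seen. With group means removed, Pearson r of log2 CPM was -0.79 (Spearman rho -0.72). Other pairs were as strong by r, such as Stat5b with Cux2 (0.87, rho 0.62) and Stat5a with Prlr (0.79, rho 0.55). Between groups the pattern did not hold throughout: HuMgat2 HFD had the lowest Bcl6, with Cish of 3.99 to 14.2 CPM against 1.76 to 28.7 CPM in WT HFD. The library with the highest Bcl6 of its group had the lowest Cish in 3 of the 4 groups: library 12 in HuMgat2 HFD, library 1 in WT HFD and library 5 in WT chow. In WT chow the order of the 4 libraries by Bcl6 was the reverse of that by Cish. In HuMgat2 chow the highest Bcl6 was in library 13 and the lowest Cish in library 16, and library 15 was high in both for its group. These levels come from the same libraries, so they share depth and scaling, and no test was made.

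**Figure D3:**
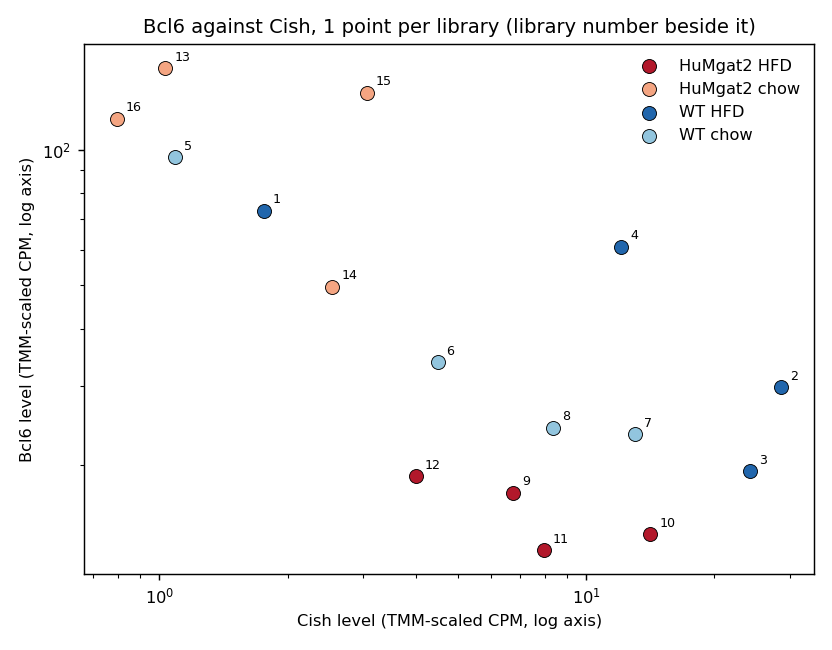
Bcl6 level (vertical, CPM, log axis) against Cish level (horizontal, CPM, log axis) in the 16 libraries, coloured by group and marked with the library number. Libraries 13, 16 and 5 lie at upper left with Cish near 1 CPM and Bcl6 of 96.2 CPM or more, and the HuMgat2 HFD libraries form the lowest set.

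Cux2 (ENSMUSG00000042589, chromosome 5, 121994429 to 122187914), a female-biased repressor in mouse liver, was barely detected. It had 0.37, 0.35, 0.60 and 0.22 CPM in HuMgat2 HFD, 0.32, 0.68, 0.64 and 0.70 CPM in HuMgat2 chow, 0.59, 1.21, 0.32 and 4.77 CPM in WT HFD and 0.47, 0.37, 0.86 and 0.35 CPM in WT chow libraries. The 4.77 CPM are 60 counts in WT HFD library 4, and no other library exceeded 29 counts. The difference between genotypes on HFD was called at log2 -2.03 ± 0.65 SE (adjusted p = 0.0456), but was log2 -0.86 (adjusted p = 0.224) without library 4. Leaving out any of 13 libraries ended the call, with adjusted p from 0.0501 to 0.224, and the exceptions were WT HFD libraries 1 and 3 and WT chow library 7. With HFD in WT the difference was log2 1.62 ± 0.63 SE (adjusted p = 0.096), passed by DESeq2 (0.0466) or without WT HFD library 3 (0.0293), and was log2 0.45 (adjusted p = 0.557) without library 4. Library 4 also had the highest summed macrophage and neutrophil markers, 760.7 and 16.6 CPM, and their part was not tested.

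**Figure D4:**
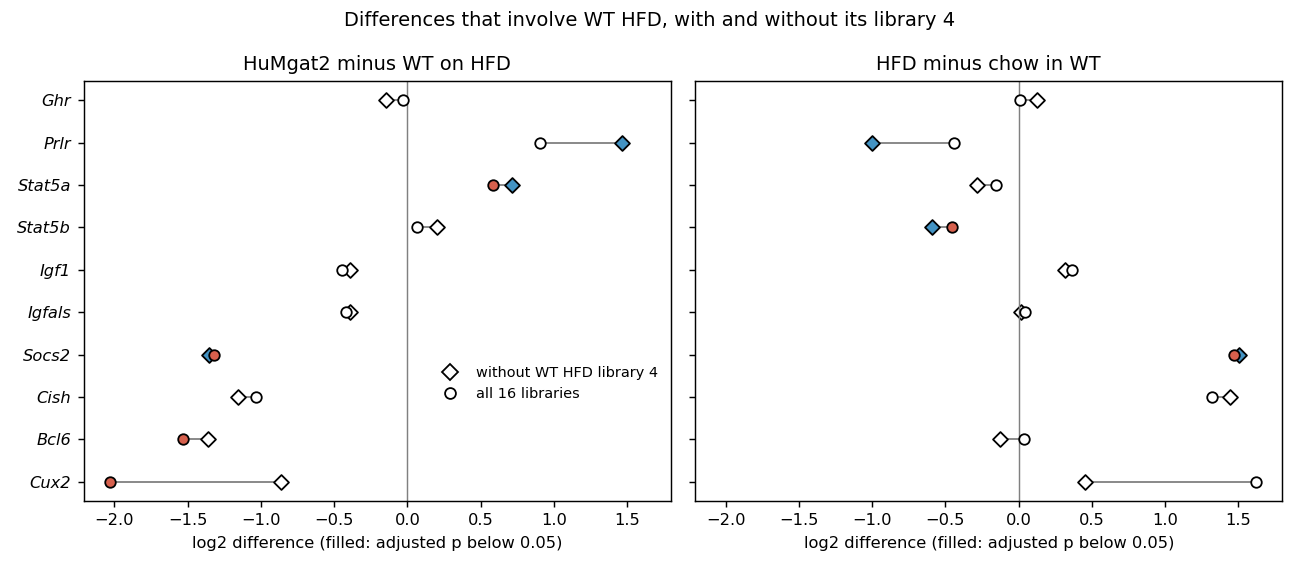
Log2 difference of each gene between genotypes on HFD (left) and with HFD in WT (right), as circles with all 16 libraries and as diamonds without WT HFD library 4, filled where the adjusted p was below 0.05. Prlr moves outward in both panels and becomes called, Cux2 moves toward 0, and Socs2 stays within 0.04 of its value.

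The tested genes closest to each called member were sought among 14109 genes of at least 1 CPM on average, by the root mean square difference of centred log2 CPM over the 16 libraries. Those nearest to Igf1 were Ogfrl1 and the secreted hepatocyte protein gene Ahsg, at 0.155 and 0.157, where Igf1 itself had an SD of 0.294. For Stat5a they were Ehd1 and Ankrd13a at 0.139 and 0.148 (SD of Stat5a 0.266). For Stat5b they were Prkaa1, a catalytic subunit of AMP-activated kinase, and Fbxo28 at 0.096 and 0.099 (SD 0.233). For Socs2 they were Gm9847 and Tmem86a at 0.344 and 0.437 (SD 0.870), and for Cux2 Hk3 and Ifi47 at 0.442 and 0.446 (SD 0.928). For Bcl6 they were Srrm4 and the complement gene C9 at 0.743 and 0.767 (SD 1.206).

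Among 17 tested genes of receptor signalling and feedback, such as Jak2, Stat3 and the other Socs genes, 1 rose with HFD in HuMgat2, 2 rose and 1 fell with HFD in WT, 1 was lower in HuMgat2 livers on HFD, and 0 were called between genotypes on chow (1 without WT HFD library 4). Of all genes tested, 14.0%, 15.1%, 14.8% and 0.508% were called in those comparisons, so the counts of 1, 3 and 1 lay at or near these shares or below them. Their median log2 differences were -0.05, -0.02, -0.09 and 0.04 in that order, close to those of all genes given above. Socs3, the feedback inhibitor best known for interleukin 6 signals, had 3.74 to 4.12 CPM in HuMgat2 HFD and 6.20 to 15.1 CPM in HuMgat2 chow libraries. It had 9.23, 12.0, 5.67 and 116.1 CPM in WT HFD and 2.27 to 6.12 CPM in WT chow libraries. It rose with HFD in WT (log2 3.21 ± 0.75 SE, adjusted p = 0.00956), at log2 1.24 (adjusted p = 0.0149) without library 4. Leaving out HuMgat2 HFD library 11 or 12 gave a count of 0 in HuMgat2, leaving out HuMgat2 chow library 15 or WT chow library 8 gave 2, and leaving out WT HFD library 4 gave 4. The count in WT was 1 without WT chow library 5, 7 or 8, and on HFD it was 2 without WT HFD library 4.

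Among 9 tested IGF receptors, binding proteins and proteases, Igfbp2 was the only gene called in these comparisons. It was called with HFD in HuMgat2 and between genotypes on HFD, where 14.0% and 14.8% of all genes were called. A count of 1 among 9 lay near these shares. With HFD in WT and on chow the count was 0, against 15.1% and 0.508% of all genes. This IGF-binding protein had 24.96 to 39.3 CPM in HuMgat2 HFD, 104.7 to 125 CPM in HuMgat2 chow and 127 to 203.5 CPM in WT chow libraries. In WT HFD it had 148.1 to 177.7 CPM in libraries 1 to 3 and 59.0 CPM in library 4. It fell 3.98-fold with HFD in HuMgat2 (log2 -1.99 ± 0.26 SE, adjusted p = 8.97e-05) and on HFD it lay 4.68-fold under WT livers in HuMgat2 livers (adjusted p = 4.06e-05). Its calls held on leaving out each library, while the count of the list in HuMgat2 was 2 without HuMgat2 HFD library 12, HuMgat2 chow library 13, 14 or 15, WT HFD library 2 or WT chow library 8, and it reached 4 on omission of WT HFD library 4. The count of the list on HFD was 2 without WT HFD library 1 or 2, and with HFD in WT, where it was 0, it was 1 without HuMgat2 HFD library 12, WT HFD library 3 or WT chow library 6 or 8. The median log2 differences of the list were 0.00 with HFD in HuMgat2, 0.36 with HFD in WT, 0.07 between genotypes on HFD and 0.13 on chow.

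Among 12 liver transcription factors known to work beside STAT5, 3 rose and 1 fell with HFD in HuMgat2, 4 rose and 2 fell with HFD in WT, 2 were higher in HuMgat2 livers on HFD, and 0 were called on chow (1 without WT HFD library 4). The shares over all genes were 14.0% with HFD in HuMgat2, 15.1% with HFD in WT and 14.8% between genotypes on HFD, and the 2 of 12 on HFD were close to the last of these. Trim24, a coregulator of nuclear receptors, rose 1.80-fold with HFD in HuMgat2 (adjusted p = 0.000193) and 1.39-fold in WT (adjusted p = 0.0157). The count in HuMgat2 was 2 without HuMgat2 HFD library 10, 11 or 12 or HuMgat2 chow library 14 and 1 without HuMgat2 chow library 16, and the count in WT was 3 without WT chow library 7. Of 13 other cytokine and growth factor receptors, 1 rose and 3 fell with HFD in HuMgat2, 2 rose and 2 fell with HFD in WT, 4 were lower in HuMgat2 on HFD and 0 were called on chow, beside 14.0%, 15.1%, 14.8% and 0.508% of all genes. Egfr, the epidermal growth factor receptor and a gene that growth hormone is known to raise in mouse liver, averaged 187.7 ± 57.5 CPM in HuMgat2 HFD, 1217 ± 344 CPM in HuMgat2 chow, 1325 ± 648 CPM in WT HFD and 718.3 ± 338 CPM in WT chow. It fell 6.48-fold with HFD in HuMgat2 (adjusted p = 0.000206). The count of receptors in WT was 2 without WT chow library 5, 7 or 8.

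Of 20 genes with higher levels in male than in female mouse liver, all tested, 15 fell and 0 rose with HFD in HuMgat2, and 5 fell and 1 rose with HFD in WT. On HFD 11 were lower and 0 higher in HuMgat2 livers, and 0 were called on chow. Among all 17318 genes tested, 14.0% were called with HFD in HuMgat2 (1109 of them lower), 15.1% with HFD in WT (1168 lower), 14.8% between genotypes on HFD (1309 lower) and 0.508% on chow. The list was chosen with earlier results of these data known, so its excess over these shares is not independent evidence. The median log2 difference was -2.03 with HFD in HuMgat2 and -0.28 in WT. Hsd3b5, a steroid dehydrogenase of male liver, averaged 0.34 ± 0.15 CPM in HuMgat2 HFD, 144.3 ± 64.6 CPM in HuMgat2 chow, 95.4 ± 61.5 CPM in WT HFD (6.59 CPM in library 4) and 136.1 ± 25.0 CPM in WT chow. Of 22 genes with higher levels in females, 18 were tested, and 8 rose and 7 fell with HFD in HuMgat2, where 14.0% of all genes were called. With HFD in WT 1 rose and 7 fell, on HFD 8 were higher and 1 lower in HuMgat2, and 0 were called on chow (1 without HuMgat2 chow library 14), against 15.1%, 14.8% and 0.508% of all genes. Cd36, a fatty acid transporter, averaged 257.3 ± 26.9 CPM in HuMgat2 HFD and 45.6 ± 3.8 CPM in HuMgat2 chow (adjusted p = 3.07e-06). Cyp2b9 averaged 461.4 ± 83.4 CPM in HuMgat2 HFD and 0.093 ± 0.105 CPM in WT HFD, from 0 to 6 counts per library in WT HFD. On chow it averaged 37.8 ± 34.5 CPM in HuMgat2 and 9.64 ± 10.1 CPM in WT livers. Among those that fell, Cyp3a44 averaged 0.172 ± 0.033 CPM in HuMgat2 HFD and 2.34 ± 0.31 CPM in HuMgat2 chow (log2 -3.72, adjusted p = 9.4e-06), and Cyp3a16 averaged 0.206 ± 0.079 CPM in HuMgat2 HFD and 3.01 ± 0.42 CPM in HuMgat2 chow (log2 -3.85, adjusted p = 3.89e-05). The 4 genes of smallest adjusted p with HFD in WT, Cyp3a44, Cyp3a41b, Cyp3a41a and Cyp3a16, all fell, with adjusted p from 0.000287 to 0.00119. These Cyp3a genes are close copies of each other at low counts, so the split of reads among them is uncertain.

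Of 14 genes of fatty acid handling that BCL6 is known to restrain in mouse liver, 9 rose and 0 fell with HFD in HuMgat2, and 2 rose and 2 fell with HFD in WT, against 14.0% of all genes with HFD in HuMgat2 (1309 of them higher) and 15.1% in WT. On HFD 7 were higher and 0 lower in HuMgat2 livers, and 0 were called on chow, against 14.8% and 0.508% of all genes. The median log2 difference was 0.98 with HFD in HuMgat2, -0.02 in WT, 1.09 between genotypes on HFD and 0.05 on chow. The secreted hormone gene Fgf21 averaged 7.56 ± 2.54 CPM in HuMgat2 HFD, 1.09 ± 0.70 CPM in HuMgat2 chow, 1.59 ± 0.75 CPM in WT HFD and 2.11 ± 0.90 CPM in WT chow. Pdk4, a kinase that restrains glucose oxidation, averaged 16.2 ± 0.65 CPM in HuMgat2 HFD against 3.14 ± 0.61 CPM in WT HFD (5.11-fold, adjusted p = 2.04e-05). On chow it averaged 7.20 ± 1.80 CPM in HuMgat2 and 8.35 ± 3.4 CPM in WT. With HFD in WT, Pdk4 fell 2.64-fold (log2 -1.40, adjusted p = 0.00205), while Bcl6 there differed by log2 0.04. The count in WT was 2 without WT HFD library 2 or WT chow library 5, 7 or 8. Diet effects differed between genotypes for 3 of the 14, and for 7 without WT HFD library 4. These genes also answer to other regulators, and the part of Bcl6 in them was not tested. The list was chosen with earlier results of these data known, so its counts are not independent evidence.

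**Figure D5:**
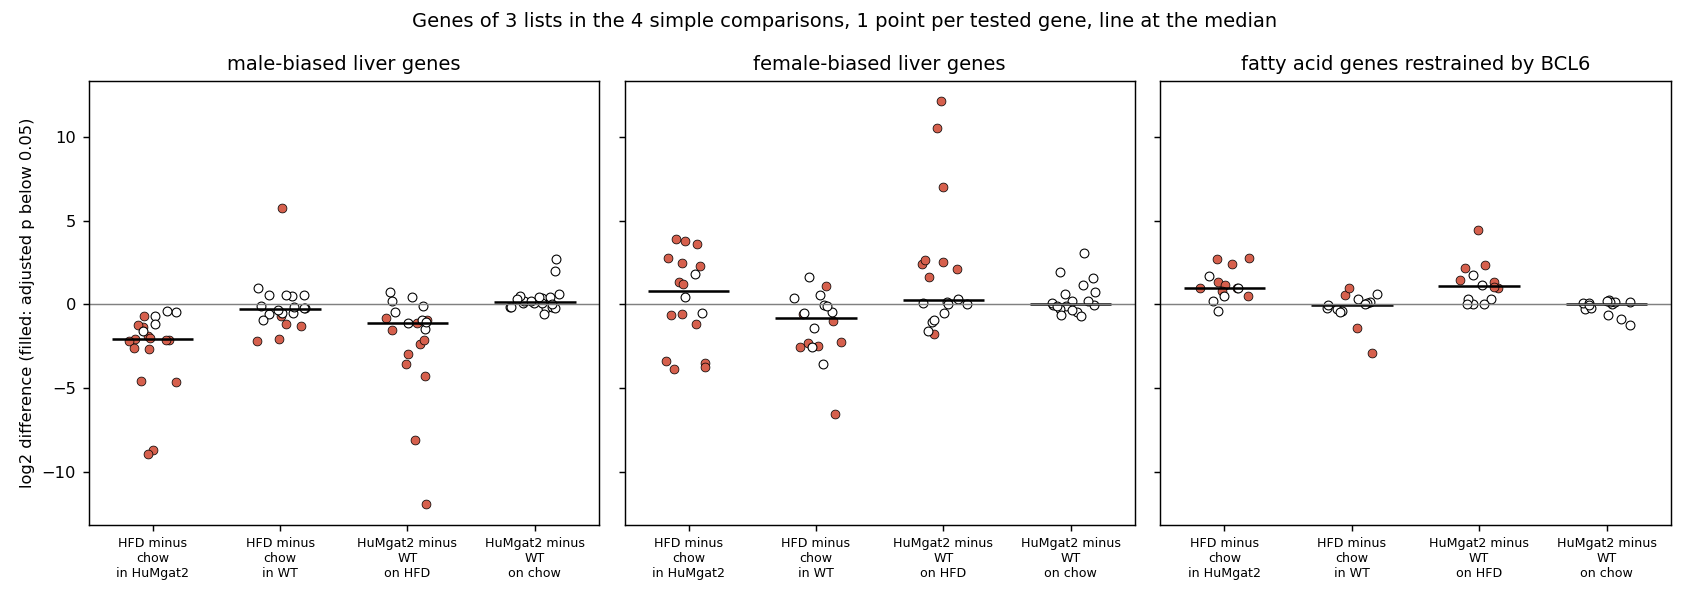
Log2 difference of each tested gene (vertical axis, filled where the adjusted p was below 0.05, line at the median) for male-biased genes, female-biased genes and fatty acid genes restrained by BCL6 in the 4 simple comparisons. Male-biased genes lie mostly under 0 with HFD in HuMgat2 (median -2.03), and the most extreme fitted values belong to genes with counts near 0 in a group and are not bounds.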

How the data were processed

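Liver total RNA was depleted of ribosomal RNA and prepared with a stranded kit, from 15 mg of tissue and RNA with an integrity number above 7, per the labels' protocols. The deposited table holds raw read-pair counts per gene name, made with featureCounts 2.0.1 on GRCm39 with Ensembl 103 annotation, and no strand option, per the file headers. It also gives the summed exon length of each gene, used for FPKM, per the file headers. STAR 2.7 and DESeq2 1.26.0 are named in the submitters' processing notes. Each of the 16 libraries has 4 sample records and was used once.

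All 4 groups were fitted together in R 4.3.3 by edgeR 4.0.16, whose quasi-likelihood test was two-sided, with TMM scaling, the filterByExpr filter (17318 genes) and Benjamini-Hochberg adjustment over all genes tested. The SE is the log2 difference over the square root of F. CPM are TMM-scaled, and log2 CPM used a prior count of 2. Whether libraries are separate animals is given by the labels only as numbered mice, and p-values measure the spread between these libraries. The 10 genes and the gene lists were chosen with earlier results of these data known. Named genes are the 10, up to 4 called genes of smallest adjusted p per list and comparison, the 2 nearest genes of each called member, Mogat2 and Alb; Ddx3y and Xist were named after their values were seen, and not every gene the rule allows is described. Alternatives were DESeq2 1.42.0 and its size factors, limma 3.58.1 voom with quality weights, fits without a filter, with genes averaging 1 CPM or more, or on the 2 groups of a comparison alone, 89 mitochondrial, ribosomal RNA and hemoglobin genes left out, and each library left out. The test was checked on simulated counts with changes put into HuMgat2 HFD. It recovered 22.4% of 1.5-fold, 68.7% of 2-fold and 87.9% of 4-fold changes, with 8 false among 127 calls. Changes of 2-fold and 4-fold were thus missed in part, and a gene that was not called may still differ by such amounts. The simulation gave 127 calls, against 2418 in the data with HFD in HuMgat2, so these rates are only a rough guide.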

Additional observations from a re-analysis of the deposited data

Results flagged for a closer look

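Bcl6 in WT chow library 5 stood at 96.2 CPM, far from the other 3 WT chow libraries at 23.4 to 33.9 CPM, by a gap test on groups of 4. Cux2 in HuMgat2 chow library 13 stood at 0.323 CPM, under the other 3 at 0.64 to 0.70 CPM, from 5 counts. Chance flags about 1 in 20 groups, and these are 2 of 40 groups of a gene.

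The diet effect differed between HuMgat2 and WT livers by the interaction test for 3 of the 10 genes, beside 4.87% of all genes tested. The difference (diet effect in HuMgat2 minus diet effect in WT) was log2 -0.89 ± 0.21 SE for Igf1, 0.58 ± 0.16 SE for Stat5a and -2.87 ± 0.66 SE for Bcl6. The Stat5a call (adjusted p = 0.049) was lost on leaving out any of 14 of the 16 libraries, with adjusted p from 0.0528 to 0.0938. The Igf1 call (adjusted p = 0.022) was lost without HuMgat2 HFD library 11 (0.0525) or WT chow library 5 (0.0548), and the Bcl6 call (adjusted p = 0.0193) held on leaving out each library. For Igf1 the fitted diet effects had opposite signs, -0.52 in HuMgat2 and 0.37 in WT. For Bcl6 they were -2.83 in HuMgat2 and 0.04 in WT, and without WT chow library 5 the value of Bcl6 in WT was 0.75.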

How the results depend on the processing

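Over 23 settings 1135 values of the 10 genes were recomputed: 1064 counted as the same, 47 lost a call and 24 gained one. With a call in either fit, 0 reversed direction. The 1064 include values without a call in either fit that changed sign. Bcl6 with HFD in WT, for example, ran from log2 -0.29 to 0.75 on leaving out each library. With HFD in HuMgat2 the count of called genes was 3, and 5 by DESeq2 or with only the 2 groups compared, and 1 to 4 on leaving out each library (1 without HuMgat2 HFD library 11). With HFD in WT it was 2, and 4 by limma voom, and 2 to 3 on leaving out each library. Between genotypes on HFD it was 4, and 2 to 5 on leaving out each library, with 2 without HuMgat2 HFD library 10, 11 or 12. On chow it was 0 in all settings. For the difference of diet effects it was 3, and 1 to 3 on leaving out each library, with 1 without HuMgat2 HFD library 11 or WT chow library 5; the fit of only the 2 groups compared gives no such difference. The cause was not tested. No paired analysis was possible because the library numbers differ between groups. Cux2 had 5 to 60 counts per library, so its values are limited by depth. Over all genes tested, limma voom called 3944 against 2617 with HFD in WT, 4323 against 2558 between genotypes on HFD, 135 against 88 on chow and 1391 against 844 for the difference of diet effects; DESeq2 called 238 on chow, and the fit of only the 2 WT groups 1452. Leaving out a library moved these counts by over 1.5 times with HFD in WT (1673 without WT chow library 5), between genotypes on HFD (1585 without HuMgat2 HFD library 10), on chow (53 without WT chow library 5, 58 without HuMgat2 chow library 13, 204 without WT HFD library 4) and for the difference of diet effects (529 without WT chow library 5, 550 without HuMgat2 chow library 15, 551 without HuMgat2 HFD library 10).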
